A study of Mus musculus with 11 samples.

Results

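The RNA of 10 growth factor genes was followed in myeloid cells taken from irradiated mouse tumours: Vegfa, Vegfb, Vegfc, Pgf, Angpt2, Hgf, Tgfb1, Areg, Ereg and Hbegf. They were chosen by name, as secreted factors through which tumour myeloid cells can act on blood vessels and on tumour cells, and all 10 were present among the 22068 gene symbols of the deposited tables. Tumours grown under the skin of mice on a C57BL/6 background received 15 Gy of local irradiation and were removed 4 days later, and CD11b-positive cells were isolated on magnetic beads and sequenced without culture. The groups were STAT3KO (4 libraries, STAT3-/-, from MxCre/Stat3flox mice), TLR9KO (4 libraries, TLR9-/-) and WT (3 libraries, wild type). All of them were irradiated, so none of the differences below is one between irradiated and unirradiated tumours. MxCre is driven by an interferon-inducible promoter and is not restricted to myeloid cells, and TLR9-/- is a deletion in the whole animal, so other cells of these hosts carried the same changes. The labels name neither the tumour line nor the animals' age, and do not say that replicates came from separate animals, so p-values measure the spread between these libraries, which may be technical.

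Vascular endothelial growth factors bind the VEGF receptors of endothelial cells: Vegfa is the main driver of vessel sprouting, Vegfc acts mostly on lymphatic vessels, and Vegfb and Pgf (placental growth factor) bind Flt1 but not Kdr. Angpt2 is a context-dependent antagonist of the receptor Tek that loosens vessel walls, Hgf is the ligand of Met, and Tgfb1 is a broadly acting cytokine that is secreted in a latent form. Areg (amphiregulin), Ereg (epiregulin) and Hbegf are made as membrane-bound precursors, are shed by the protease Adam17, and signal through Egfr and its relatives. Macrophages and other myeloid cells are known sources of several of these factors in tumours and healing wounds, and Stat3 and Tlr9 act in the pathways by which such cells respond to cytokines and to CpG DNA.

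Levels are given in RPKM, reads per kilobase of gene scaled to the mapped reads of the library, as deposited, and can be compared between genes because they are per length. Differences are on the log2(RPKM + 1) scale, which understates changes of low genes, and were tested with limma over the 10557 genes that averaged 1 RPKM or more, with Benjamini-Hochberg adjustment over all of them and a threshold of 0.05. Vegfc and Ereg lay below that filter and were tested with an exact two-sided permutation test over samples, which cannot go below 0.0571 for 4 against 3 libraries or 0.0286 for 4 against 4. Depth, estimated from the steps between low values, ran from 30.8 to 53.9 M reads a library. Stat3 averaged 18.2 ± 1.85 RPKM in STAT3KO, against 64.3 ± 4.27 in TLR9KO and 73.1 ± 2.78 in WT, and Tlr9 averaged 5.77 ± 1.72 RPKM in TLR9KO, against 32.5 ± 19.5 in STAT3KO and 30.3 ± 10.6 in WT (SD). Both targeted genes were thus lowest in the libraries labelled for them, while neither was at 0.

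The 8 myeloid markers were detected in every library, with a summed level of 7766 to 10480 RPKM in STAT3KO, 5628 to 8462 in TLR9KO and 4673 to 6054 in WT. The largest part of this sum was Lyz2, which averaged 5257 RPKM in STAT3KO, 3886 in TLR9KO and 2411 in WT. Of the 8 markers, 4 rose and 1 fell in STAT3KO against WT, where 29.2% and 14.8% of all tested genes did. Tyrobp rose by 1.13 on the log2 scale, Lyz2 by 1.15, Emr1 by 0.92 and Cd68 by 0.44 (limma, adjusted p of at most 0.0187). Itgam, the gene of the sorted CD11b, averaged 218 RPKM in STAT3KO, 242 in TLR9KO and 301 in WT. It fell in STAT3KO against WT by 0.47 on the log2 scale (limma, adjusted p = 0.0416). Melanocyte marker RNA was also high everywhere, at 834 to 1282 RPKM in STAT3KO, 488 to 1394 in TLR9KO and 454 to 1446 in WT. Replicate 3 of TLR9KO and replicate 2 of WT stood apart at the low end, with 488 and 454 RPKM, and results that depend on them are given with and without them. In these bulk samples, fewer cells of a type and less RNA per cell cannot be told apart.

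Of the 8 growth factors tested, 6 differed between STAT3KO and WT: Pgf, Areg, Hbegf and Tgfb1 fell and Angpt2 and Hgf rose. Vegfa and Vegfb, the most abundant VEGF genes in STAT3KO, did not pass the test. Of all tested genes, 44.0% passed it in this comparison, 29.2% upwards and 14.8% downwards. The 6 were also the growth factors whose STAT3KO and WT values did not overlap, against 47.7% of all tested genes. Between TLR9KO and WT, 2 of the 8 passed, Tgfb1 and Hbegf, both lower in TLR9KO and 0 higher (1 higher, Hgf, at an unadjusted p below 0.05), against 30.6% of all tested genes, 20.0% upwards and 10.6% downwards. Of these, Tgfb1 had TLR9KO and WT values without overlap, as 36.1% of all tested genes had. Between STAT3KO and TLR9KO, 4 of the 8 passed, Angpt2 being higher and Pgf, Areg and Hbegf lower in STAT3KO, against 22.8% of all tested genes, 13.4% upwards and 9.46% downwards. Angpt2, Pgf and Areg had STAT3KO and TLR9KO values without overlap, as 27.0% of all tested genes had. The median log2 difference of the 8 was -0.43 between STAT3KO and WT, -0.32 between TLR9KO and WT and -0.04 between STAT3KO and TLR9KO, where that of all tested genes was 0.09, 0.04 and 0.06. The comparisons with WT share the 3 WT libraries, so their results are not independent.

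**Figure D1:**
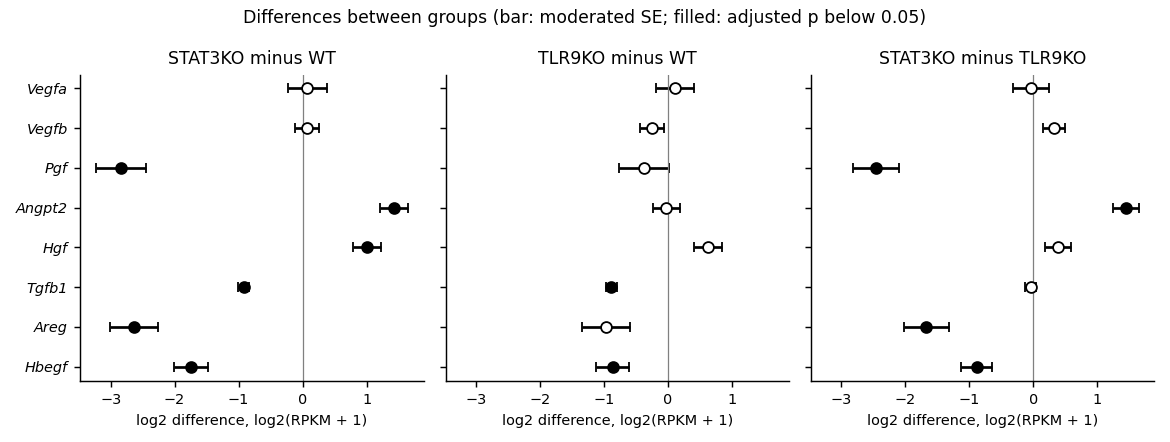
Difference in mean log2(RPKM + 1) between groups for the 8 growth factors tested (x axis, log2 units), with 1 panel per comparison; bars are limma's moderated standard errors and filled points have an adjusted p below 0.05. Pgf and Areg lie farthest to the left in STAT3KO minus WT, at -2.84 and -2.64, Angpt2 lies to the right in both comparisons of STAT3KO, and Tgfb1 lies near -0.9 in both comparisons with WT.

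Tgfb1 was the most abundant of the 10 genes in every group. It stood at 157, 167, 177 and 183 RPKM in STAT3KO and at 176, 175, 160 and 192 RPKM in TLR9KO, against 337, 309 and 329 RPKM in WT. The ranges of both knockout groups overlapped each other and lay wholly below the WT range. STAT3KO held 52.6% and TLR9KO 54.2% of the WT mean. On the log2 scale the difference was -0.92 ± 0.089 between STAT3KO and WT (SE, limma, adjusted p = 3.69e-05) and -0.88 ± 0.089 between TLR9KO and WT (limma, adjusted p = 0.000201). Between STAT3KO and TLR9KO it was -0.04 ± 0.082 (limma, adjusted p = 0.746). Every alternative fit kept both differences from WT past the threshold, with an adjusted p of at most 0.000711 for STAT3KO and 0.00589 for TLR9KO.

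The genes directly beside Tgfb1 did not pass the threshold against WT. B9d2 averaged 10.6 RPKM in STAT3KO, 10.8 in TLR9KO and 12.5 in WT, and Ccdc97 averaged 18.9, 16.1 and 19.1 RPKM in the same order. Hnrnpul1, the gene after Ccdc97, averaged 64.6 RPKM in STAT3KO, 58.5 in TLR9KO and 76.8 in WT and fell in both knockouts, by 0.25 and 0.39 on the log2 scale (limma, adjusted p = 0.039 and 0.0075).

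Platelets carry TGF-beta and T cells make it. Markers of platelets and erythroid cells summed to 609 to 1021 RPKM in STAT3KO, 149 to 772 in TLR9KO and 139 to 521 in WT. Most of it was Pf4, though less so in WT, with means of 738, 365 and 211 RPKM in that order. Other markers of this list ran the opposite way: Ppbp averaged 19.8 RPKM in STAT3KO, 26.7 in TLR9KO and 48.8 in WT, and the globin gene Hba-a1 fell in both knockouts, by 3.14 and 4.89 on the log2 scale (limma, adjusted p = 0.00477 and 0.000993). Markers of T, NK and innate lymphoid cells summed to 33.3 to 47.3 RPKM in STAT3KO, 31.8 to 70.8 in TLR9KO and 25.9 to 48.0 in WT, most of it Il7r. Of the 3 markers of this list above the filter, Il7r and Cd4 lay above WT on average without passing the threshold. Their log2 differences from WT were 0.31 and 0.13 in STAT3KO and 0.43 and 0.03 in TLR9KO. Il1rl1 differed from WT by -0.74 in STAT3KO (limma, adjusted p = 0.0394) and by -0.53 in TLR9KO (limma, adjusted p = 0.147). Cd3e, Cd8a and Foxp3, below the filter, were lower on average in both knockouts than in WT. Cd3e averaged 0.2 RPKM in STAT3KO, 0.643 in TLR9KO and 2.24 in WT, and Foxp3 stood at 0.41 to 0.80 RPKM in STAT3KO and 0.35 to 0.69 in TLR9KO, against 1.07 to 2.77 in WT, without overlap. The part of these cells in the Tgfb1 difference was not tested.

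**Figure D2:**
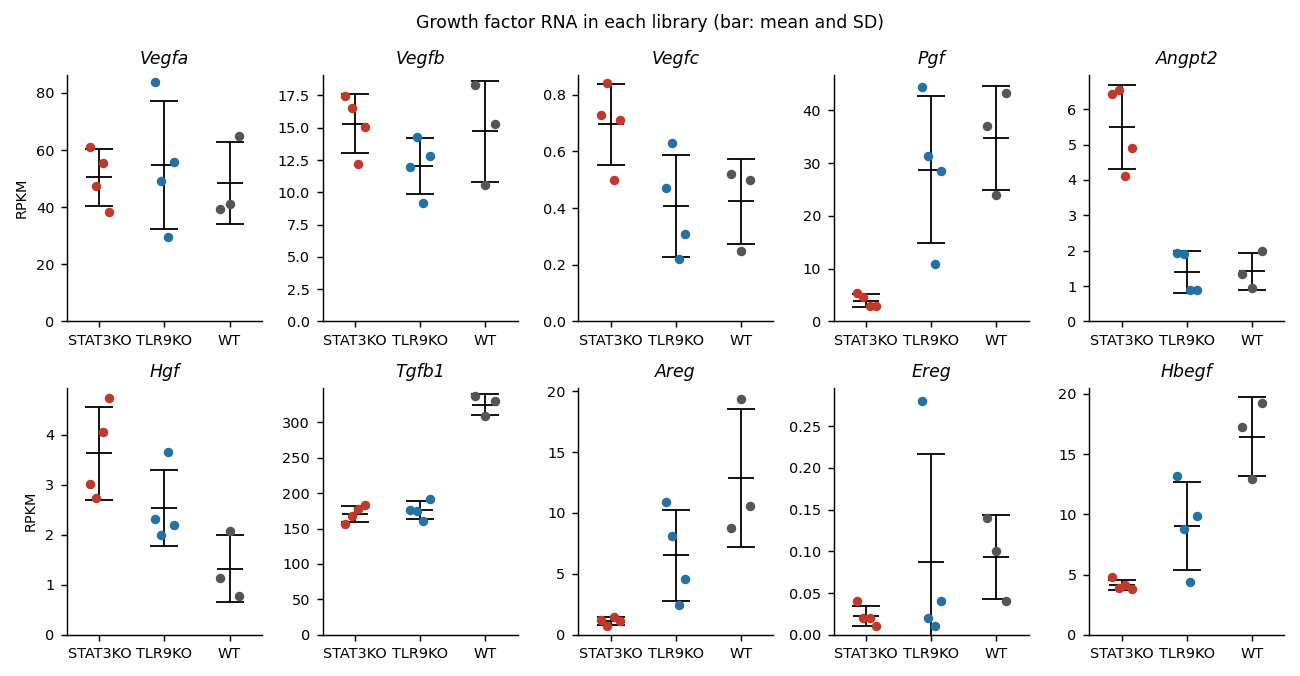
RPKM of each growth factor gene in each library (y axis, linear, from 0), with the group mean and SD as bars; groups run STAT3KO (4 libraries), TLR9KO (4) and WT (3). The lower end of the Ereg bar of TLR9KO runs below 0 and is cut off; the STAT3KO points of Pgf, Areg and Hbegf lie below all WT points, and the Tgfb1 points of both knockouts lie below all WT points.

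On the log2(RPKM + 1) scale, Pgf showed the greatest fall of the 8 tested genes in STAT3KO. It stood at 5.39, 4.57, 2.99 and 2.92 RPKM in STAT3KO and at 44.5, 31.3, 10.8 and 28.5 RPKM in TLR9KO, against 37.1, 23.9 and 43.3 RPKM in WT. Every STAT3KO library lay below every TLR9KO and WT library, while TLR9KO and WT overlapped. The STAT3KO mean was 8.77-fold lower than the WT mean and 7.26-fold lower than the TLR9KO mean. The log2 difference was -2.84 ± 0.39 between STAT3KO and WT (SE, limma, adjusted p = 0.000277), place 14 from the lowest of the 10557 genes. Between TLR9KO and WT it was -0.38 ± 0.39 (limma, adjusted p = 0.489), and between STAT3KO and TLR9KO -2.46 ± 0.36 (limma, adjusted p = 0.00129).

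Vegfa, by contrast, was spread widely within groups and did not separate them. It stood at 61.1, 47.4, 55.5 and 38.3 RPKM in STAT3KO and at 83.8, 49.2, 29.6 and 56.0 RPKM in TLR9KO, against 39.4, 41.1 and 65.1 RPKM in WT. All 3 groups overlapped. The log2 difference was 0.07 ± 0.30 between STAT3KO and WT (limma, adjusted p = 0.862) and 0.11 ± 0.30 between TLR9KO and WT (limma, adjusted p = 0.807), each smaller than its standard error. Vegfb stood at 17.4, 16.5, 12.2 and 15.0 RPKM in STAT3KO and at 12.0, 14.3, 9.14 and 12.8 RPKM in TLR9KO, against 18.3, 10.5 and 15.3 RPKM in WT. It overlapped between all groups and passed no test, with limma adjusted p-values of 0.779 for STAT3KO against WT, 0.333 for TLR9KO against WT and 0.198 for STAT3KO against TLR9KO. Vegfc stayed at or below 0.84 RPKM, about 22 to 96 reads a library, with 0.50 to 0.84 RPKM in STAT3KO, 0.22 to 0.63 in TLR9KO and 0.25 to 0.52 in WT. The exact permutation p for Vegfc was 0.171 for STAT3KO against WT, 0.971 for TLR9KO against WT and 0.0571 for STAT3KO against TLR9KO.

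Pgf also took a smaller share of the VEGF family in STAT3KO. It made up 5.57 ± 1.12% of the summed RPKM of Vegfa, Vegfb, Vegfc and Pgf in STAT3KO, 28.8 ± 5.00% in TLR9KO and 35.1 ± 3.68% in WT (SD). The STAT3KO shares, 4.20 to 6.60%, lay apart from the TLR9KO shares, 21.7 to 32.9%, and the WT shares, 31.5 to 38.9%. The exact permutation p was 0.0571 for STAT3KO against WT and 0.0286 for STAT3KO against TLR9KO, each the smallest its design can give, and 0.171 for TLR9KO against WT. The summed level of the family was 70.5 ± 11.4 RPKM in STAT3KO, 95.9 ± 37.2 in TLR9KO and 98.5 ± 24.3 in WT, and the groups overlapped (exact permutation p = 0.114 for STAT3KO against WT).

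**Figure D3:**
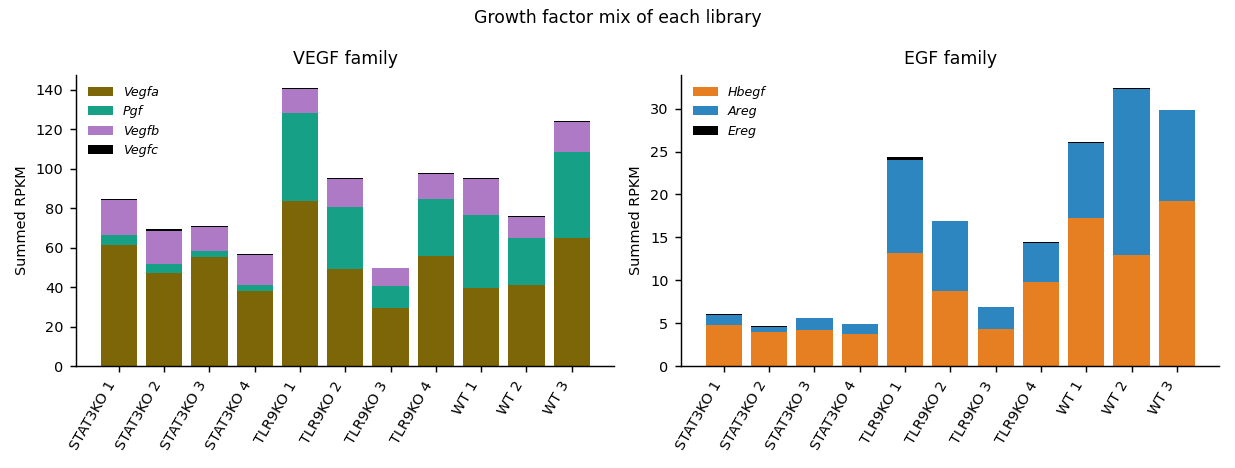
Summed RPKM (y axis, from 0) of the VEGF family (left) and the EGF family (right) in each library, stacked by gene. The Pgf segment makes up 4.20 to 6.60% of the left bars in STAT3KO and 31.5 to 38.9% in WT, and the right bars reach 4.63 to 6.04 RPKM in STAT3KO and 26.1 to 32.4 RPKM in WT.

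Areg and Hbegf, the EGF family genes with appreciable RNA, fell in STAT3KO together with Pgf. Areg stood at 1.24, 0.69, 1.47 and 1.15 RPKM in STAT3KO and at 10.9, 8.13, 2.45 and 4.56 RPKM in TLR9KO, against 8.77, 19.3 and 10.5 RPKM in WT. Every STAT3KO library lay below every library of the other groups, and TLR9KO overlapped with WT. The STAT3KO mean was 11.3-fold lower than the WT mean. This was a log2 difference of -2.64 ± 0.38 between STAT3KO and WT (SE, limma, adjusted p = 0.000358), place 22 from the lowest of the 10557 genes, and -1.67 ± 0.35 between STAT3KO and TLR9KO (limma, adjusted p = 0.00784). Between TLR9KO and WT it was -0.96 ± 0.38 and missed the threshold (limma, adjusted p = 0.0756). Without replicate 1 of TLR9KO that adjusted p was 0.0213, and over all its alternatives it ran from 0.0213 to 0.405.

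Hbegf stood at 4.76, 3.92, 4.17 and 3.79 RPKM in STAT3KO and at 13.2, 8.79, 4.38 and 9.83 RPKM in TLR9KO, against 17.2, 12.9 and 19.3 RPKM in WT. The STAT3KO values were tight and lay below all WT values, and the TLR9KO values lay mostly in between, overlapping both. The log2 difference was -1.75 ± 0.26 between STAT3KO and WT (SE, limma, adjusted p = 0.000463), -0.86 ± 0.26 between TLR9KO and WT (limma, adjusted p = 0.0287) and -0.88 ± 0.24 between STAT3KO and TLR9KO (limma, adjusted p = 0.0251). The call for TLR9KO against WT was lost without replicate 2 of TLR9KO (limma, adjusted p = 0.0539), replicate 1 of WT (0.0914) or replicate 3 of WT (0.104), and without the filter on low values (0.0591), after a GC and length correction (0.0577) or with only those groups in the fit (0.0735), in a range of 0.00375 to 0.104. The call for STAT3KO against TLR9KO was lost without replicate 2 (limma, adjusted p = 0.0575) or 4 (0.0631) of STAT3KO, or replicate 1 (0.05002), 2 (0.0598) or 4 (0.0694) of TLR9KO, in a range of 0.000767 to 0.0694.

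Ereg, which lies beside Areg on chromosome 5, was barely detected, at 0.01 to 0.04 RPKM in STAT3KO, 0.01 to 0.28 in TLR9KO and 0.04 to 0.14 in WT, about 2 to 45 reads. Its exact permutation p was 0.114 for STAT3KO against WT, 0.971 for TLR9KO against WT and 0.657 for STAT3KO against TLR9KO. Summed over Areg, Ereg and Hbegf, the EGF family reached 5.32 ± 0.645 RPKM in STAT3KO, 15.6 ± 7.22 in TLR9KO and 29.4 ± 3.13 in WT (SD). The groups did not overlap in this sum, with 4.63 to 6.04 RPKM in STAT3KO, 6.84 to 24.4 in TLR9KO and 26.1 to 32.4 in WT. The exact permutation p was 0.0571 for STAT3KO against WT, 0.0571 for TLR9KO against WT and 0.0286 for STAT3KO against TLR9KO, each again the smallest its design can give.

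The 250 bases before the annotated start of Areg, Pgf and Tgfb1 are shown because these genes fell in STAT3KO and RefSeq's promoter table for GRCm38.p6 holds them. They are read 5′ to 3′ on the strand of the gene and end at the base before the start. Capitals mark every match, on either strand, to 7 motifs. The full cAMP response element was searched for as TGACGTCA and its half-site, within it or apart from it, as TGACG. The element bound by STAT factors was searched for as TTCNNNGAA. For the AP-1 element the letters were TGANTCA and for the hypoxia response core they were ACGTG. The GC box was searched for as GGGCGG. The TATA box was searched for as TATAAA.
Areg, chr5:91139349-91139598, plus strand: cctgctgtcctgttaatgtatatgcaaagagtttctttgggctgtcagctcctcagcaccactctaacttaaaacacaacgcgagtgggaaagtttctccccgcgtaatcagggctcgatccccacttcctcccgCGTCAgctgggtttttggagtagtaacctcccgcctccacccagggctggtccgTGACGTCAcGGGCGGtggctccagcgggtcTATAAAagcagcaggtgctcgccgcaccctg
Pgf, chr12:85177314-85177563, minus strand: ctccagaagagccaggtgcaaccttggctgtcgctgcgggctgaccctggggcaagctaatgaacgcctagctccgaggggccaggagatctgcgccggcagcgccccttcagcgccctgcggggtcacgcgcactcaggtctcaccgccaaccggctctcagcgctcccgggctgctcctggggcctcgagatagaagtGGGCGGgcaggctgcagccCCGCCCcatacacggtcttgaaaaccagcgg
Tgfb1, chr7:25686752-25687001, plus strand: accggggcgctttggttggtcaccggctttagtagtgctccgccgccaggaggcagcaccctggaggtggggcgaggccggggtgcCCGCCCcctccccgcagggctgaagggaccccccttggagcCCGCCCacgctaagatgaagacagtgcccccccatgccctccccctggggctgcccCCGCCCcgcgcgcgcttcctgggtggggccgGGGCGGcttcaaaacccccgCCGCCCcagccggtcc

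The Areg window holds the full cAMP response element 61 to 54 bases before the start, a GC box at 52 to 47 and a TATA box at 31 to 26. A separate half-site lies 115 to 111 bases before the start. The full element is found in 1.55% of 32851 promoter windows of that length, the half-site in 17.8%, the GC box in 32.7% and the TATA box in 12.4%. The Pgf and Tgfb1 windows hold GC boxes only, 2 and 5 of them. The letters of the STAT element, held by 7.02% of all windows, occur in none of the windows of the 7 growth factors found in the table, which are these 3 with Vegfa, Vegfb, Vegfc and Hgf, and the AP-1 letters, held by 6.75%, in none either. The hypoxia core, held by 16.6%, occurs in 1 window, at a second start of Vegfa. These are matches of letters in short windows of a build that is not the one of the deposited files, and binding was not measured.

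Angpt2 and Hgf were the growth factors that rose in STAT3KO. Angpt2 stood at 6.44, 6.54, 4.12 and 4.89 RPKM in STAT3KO and at 1.94, 1.90, 0.89 and 0.89 RPKM in TLR9KO, against 1.35, 0.94 and 1.98 RPKM in WT. All STAT3KO libraries lay above all others, and TLR9KO and WT overlapped. The STAT3KO mean was 3.86-fold the WT mean. In log2 terms, the difference was 1.43 ± 0.22 between STAT3KO and WT (SE, limma, adjusted p = 0.000495), 1.45 ± 0.20 between STAT3KO and TLR9KO (limma, adjusted p = 0.000956) and -0.02 ± 0.22 between TLR9KO and WT (limma, adjusted p = 0.95). Angpt2 lies within Mcph1 on the opposite strand, and whether counting used strand is not given in the sources used here. Mcph1 averaged 2.29 RPKM in STAT3KO, 1.88 in TLR9KO and 1.74 in WT, with a log2 difference of 0.27 between STAT3KO and WT (limma, adjusted p = 0.0618). Endothelial cells are a well known source of Angpt2, and the 9 endothelial markers summed to 7.85 to 10.5 RPKM in STAT3KO, 7.88 to 18.7 in TLR9KO and 9.72 to 26.5 in WT. Single markers went different ways: Pecam1, the largest part of the sum, averaged 3.65 RPKM in STAT3KO, 6.48 in TLR9KO and 11.2 in WT. Esam stood at 0.59 to 1.42 RPKM in STAT3KO, 0.09 to 0.32 in TLR9KO and 0.08 to 0.43 in WT, and Cdh5 at 0.65 to 1.33, 0.34 to 0.85 and 0.38 to 0.61 RPKM in the same order, so that both lay above WT in every STAT3KO library, as did Emcn at 0.04 to 0.30 RPKM in STAT3KO against 0 to 0.02 in WT. Tek was at or near 0 in all groups. The part of endothelial cells in the Angpt2 difference was not tested.

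Hgf stood at 3.01, 2.73, 4.05 and 4.74 RPKM in STAT3KO and at 2.31, 2.00, 3.65 and 2.19 RPKM in TLR9KO, against 1.14, 2.07 and 0.77 RPKM in WT. STAT3KO lay above WT without overlap, and TLR9KO lay in between and overlapped both. The log2 difference was 1.01 ± 0.22 between STAT3KO and WT (SE, limma, adjusted p = 0.00358), 0.62 ± 0.22 between TLR9KO and WT (limma, adjusted p = 0.0513) and 0.39 ± 0.20 between STAT3KO and TLR9KO (limma, adjusted p = 0.184). The middle value passed the threshold without replicate 2 of WT (limma, adjusted p = 0.0138) or replicate 2 of STAT3KO (0.0499), and ran from 0.0138 to 0.818 over all alternatives. Fibroblasts also make Hgf, and the 7 fibroblast markers summed to 12.3 to 26.6 RPKM in STAT3KO, 8.58 to 37.7 in TLR9KO and 1.7 to 3.71 in WT. Col1a1, Col1a2 and Col3a1 rose in both knockouts, Col1a1 by 2.29 in STAT3KO and 1.85 in TLR9KO on the log2 scale (limma, adjusted p = 0.000496 and 0.00303), and the part of these cells in the Hgf difference was not tested.

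Within TLR9KO and WT, several growth factors were lowest in the library with the least melanocyte marker RNA. Replicate 3 of TLR9KO had the lowest value of its group, or tied for it, in 9 of the 10 genes and the highest in Hgf, and replicate 2 of WT was lowest of WT in Pgf, Vegfb, Vegfc, Angpt2, Tgfb1 and Hbegf and highest in Hgf. In Areg the libraries differed, since replicate 2 of WT was the highest of WT, at 19.3 RPKM, and replicate 3 of TLR9KO the lowest of its group, at 2.45 RPKM. With both libraries left out, the number of growth factors past the threshold was 6 for STAT3KO against WT, 3 for TLR9KO against WT and 5 for STAT3KO against TLR9KO, Hgf being the gene gained in both cases (limma, adjusted p = 0.0198 and 0.033). The same 6, 3 and 5 came from a fit with the melanocyte marker level as a covariate. Neither of these fits lost a call. The fit without both libraries kept the Pgf, Areg, Hbegf, Tgfb1 and Angpt2 calls, with fewer WT and TLR9KO libraries, while the covariate fit still held both. Both fits were added after the data had been seen.

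**Figure D4:**
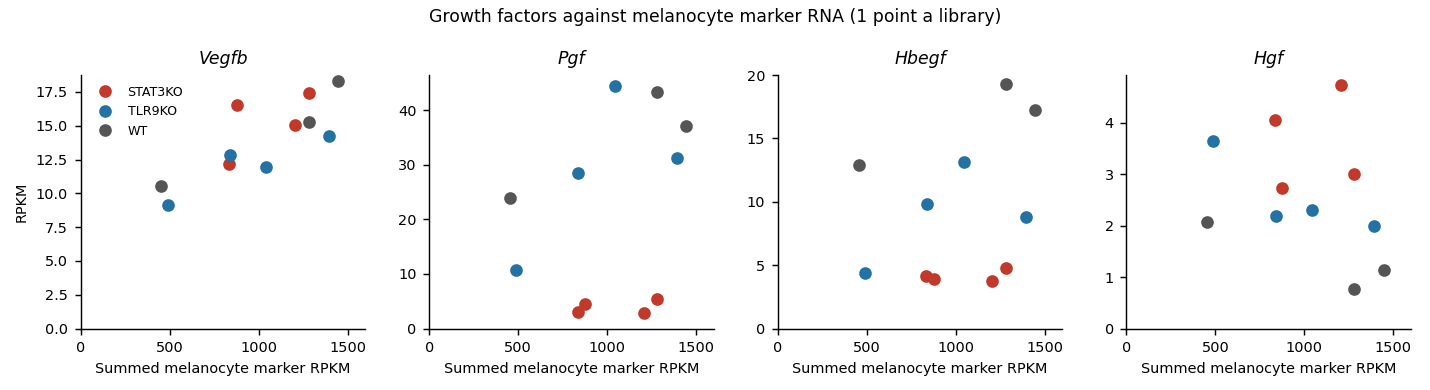
RPKM of 4 growth factors (y axes, from 0) against the summed RPKM of 7 melanocyte markers (x axis) with 1 point a library, coloured by group. The libraries at the far left, TLR9KO replicate 3 at 488 RPKM and WT replicate 2 at 454 RPKM, have the lowest Vegfb, Pgf and Hbegf and the highest Hgf of their groups.

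Some markers of other cells moved with the fall of Pgf, Areg and Hbegf. The dendritic cell markers summed to 30.3 to 70.6 RPKM in STAT3KO, 82.0 to 156 in TLR9KO and 141 to 224 in WT, mostly from Itgax, which fell in STAT3KO by 2.19 against WT on the log2 scale (limma, adjusted p = 0.000236) and is also carried by macrophages. Among the other dendritic markers, Cd209a averaged 9.79 RPKM in STAT3KO, 7.14 in TLR9KO and 7.76 in WT, Flt3 averaged 0.843, 0.25 and 0.21 RPKM in that order, and Zbtb46 was higher in STAT3KO than in TLR9KO by 0.55 on the log2 scale (limma, adjusted p = 0.0299). The epithelial markers summed to 0.80 to 1.12 RPKM in STAT3KO, 3.33 to 11.2 in TLR9KO and 15.0 to 25.7 in WT, nearly all from Cdh1, which averaged 0.85, 7.26 and 19.2 RPKM in that order, while Krt14 was listed at 0 throughout. Markers of mast cells and basophils, which are known to make Areg, summed to 2.49 to 4.28 RPKM in STAT3KO, 4.70 to 6.60 in TLR9KO and 4.09 to 9.05 in WT. Most of that was Hdc, the only 1 of the 9 above the filter, which averaged 2.69, 4.29 and 6.22 RPKM in that order. Below the filter, Kit averaged 0.258, 0.665 and 0.517 RPKM in that order. Cpa3, Mcpt4 and Tpsb2 were also highest on average in TLR9KO, Gata2 in WT, and Mcpt8 and Fcer1a in STAT3KO. Ms4a2 was at 0 in all libraries. Neutrophil markers summed to 79.1 to 505 RPKM in STAT3KO, 67.0 to 246 in TLR9KO and 56.6 to 170 in WT, with medians of 96.6, 86.3 and 99.9 RPKM. The 505 RPKM came from replicate 2 of STAT3KO alone, and the other libraries of that group reached at most 105 RPKM. Eosinophil markers summed to 0.60 to 2.51 RPKM in STAT3KO, 1.78 to 3.75 in TLR9KO and 2.34 to 5.36 in WT. The part of any of these cells in the growth factor differences was not tested.

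The order of the growth factors differed between groups below the top ranks. In STAT3KO it ran Tgfb1, Vegfa, Vegfb, Angpt2, Hbegf, Pgf, Hgf, Areg, Vegfc and Ereg, where the ranges of neighbours from Angpt2 to Hgf, and of Areg and Vegfc, overlapped. In TLR9KO it ran Tgfb1, Vegfa, Pgf, Vegfb, Hbegf, Areg, Hgf, Angpt2, Vegfc and Ereg, with overlap between all neighbours from Vegfa to Hgf and between Vegfc and Ereg. In WT it ran Tgfb1, Vegfa, Pgf, Hbegf, Vegfb, Areg, Angpt2, Hgf, Vegfc and Ereg, where Vegfa and Pgf, the genes from Hbegf to Areg, and Angpt2 and Hgf overlapped. Pgf thus stood at place 6 in STAT3KO and at place 3 in TLR9KO and WT, and Angpt2 at place 4 in STAT3KO against 8 in TLR9KO and 7 in WT. All 10 genes together summed to 256 ± 5.11 RPKM in STAT3KO, 292 ± 51.8 in TLR9KO and 456 ± 33.4 in WT (SD), most of it Tgfb1.

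Across the 11 libraries, Pgf and Hbegf had a Pearson correlation of 0.924 on the log2(RPKM + 1) scale, and of 0.947 after group means were removed, so they varied together within groups too. Areg correlated with Pgf at 0.894 and with Hbegf at 0.908, but at 0.484 and 0.547 once group means were removed. Pgf and Angpt2, which moved in opposite directions between groups, correlated at -0.753 overall and at 0.776 within groups. Among genes averaging 5 RPKM or more, those with the pattern most like that of Pgf were Fcrlb (0.986), Plaur (0.98) and Pafah1b2 (0.977). For Areg they were led by Atxn7l3b (0.986), for Hbegf by Zfp609 (0.982), for Tgfb1 by Nup188 (0.985), for Angpt2 by Foxo4 (0.961) and for Hgf by Cd48 (0.971). For Vegfa and Vegfb they were led by Basp1 (0.944) and Smyd2 (0.966). These correlations describe 11 libraries that share group differences, depth and cell mixture, and were picked as the highest of many.

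The genes around these factors were read from lists of other ligands, receptors, processing genes and regulators. Among 7 other growth factor ligands tested, 3 rose and 1 fell in STAT3KO against WT, with a median log2 difference of 0.31, where 44.0% of all tested genes passed. Igf1 averaged 44.1 ± 17.0 RPKM in STAT3KO, 9.64 ± 3.59 in TLR9KO and 10.1 ± 3.55 in WT, and rose by 2.01 ± 0.33 against WT on the log2 scale (SE, limma, adjusted p = 0.000775). Pdgfa and Pdgfb also rose, and Osm, an IL-6 family cytokine, averaged 73.7 ± 18.4 RPKM in STAT3KO, 151 ± 28.7 in TLR9KO and 217 ± 8.44 in WT, a difference of -1.58 between STAT3KO and WT (limma, adjusted p = 0.000132). With limma, 0 of the 7 passed between TLR9KO and WT (1 higher and 2 lower at an unadjusted p below 0.05; median -0.06), where 30.6% of all genes did. In STAT3KO, 4 were higher and 2 lower than in TLR9KO (median 0.85), where 22.8% of all tested genes passed.

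Of 8 receptor genes tested, 2 were higher (Nrp1 and Tgfbr1) and 1 lower (Nrp2) in STAT3KO than in WT, with a median of -0.09, where 44.0% of all tested genes passed. With limma, 0 passed between TLR9KO and WT (1 higher and 1 lower at an unadjusted p below 0.05; median 0.05) and 0 between STAT3KO and TLR9KO (1 lower; median -0.04), where 30.6% and 22.8% of all tested genes did. Nrp1 and Nrp2 are co-receptors that bind VEGF family members. Egfr averaged 0.06 RPKM in STAT3KO, 0.07 in TLR9KO and 0.0567 in WT, and Erbb4 was listed at 0 in all libraries, whereas Met, the Hgf receptor, averaged 22.0 ± 5.09 RPKM in STAT3KO, 29.3 ± 11.5 in TLR9KO and 34.0 ± 15.0 in WT. Of the other relatives of Egfr, Erbb3 averaged 2.65 RPKM in STAT3KO, 1.97 in TLR9KO and 3.21 in WT, and Erbb2 averaged 0.245, 0.245 and 0.41 RPKM in the same order.

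Of 17 genes that process, store or release these factors, 2 rose and 3 fell in STAT3KO against WT, with a median of -0.09, a smaller share than the 44.0% of all tested genes. Furin, the protease that cleaves the Tgfb1 precursor, averaged 91.8 ± 14.9 RPKM in STAT3KO, 176 ± 26.1 in TLR9KO and 231 ± 11.7 in WT, a log2 difference of -1.33 between STAT3KO and WT (limma, adjusted p = 7.04e-05). Lrrc32, which holds latent TGF-beta at the cell surface, was low, at 0.615 RPKM in STAT3KO, 3.70 in TLR9KO and 4.96 in WT on average. It fell by 1.86 in STAT3KO against WT (limma, adjusted p = 0.000517). Lrrc33, of the same list, averaged 111 RPKM in STAT3KO, 124 in TLR9KO and 143 in WT. It passed no test, with a log2 difference of -0.37 between STAT3KO and WT (limma, adjusted p = 0.0649). Spint1, an inhibitor of the protease that activates Hgf, fell by 2.18 (limma, adjusted p = 7.54e-05), and Plau, the urokinase plasminogen activator, rose by 0.99 (limma, adjusted p = 0.000142), reaching 352 ± 47.5 RPKM in STAT3KO, 228 ± 15.0 in TLR9KO and 176 ± 17.7 in WT. Adam17, the sheddase of the EGF family, averaged 32.6 ± 7.04 RPKM in STAT3KO, 34.7 ± 2.54 in TLR9KO and 34.8 ± 4.32 in WT. Between TLR9KO and WT, Plau rose and Ltbp3, a binding protein of latent TGF-beta, fell (median -0.08), where 30.6% of all tested genes passed. Between STAT3KO and TLR9KO 1 gene was higher and 4 lower (median -0.11), where 22.8% of all tested genes passed.

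**Figure D5:**
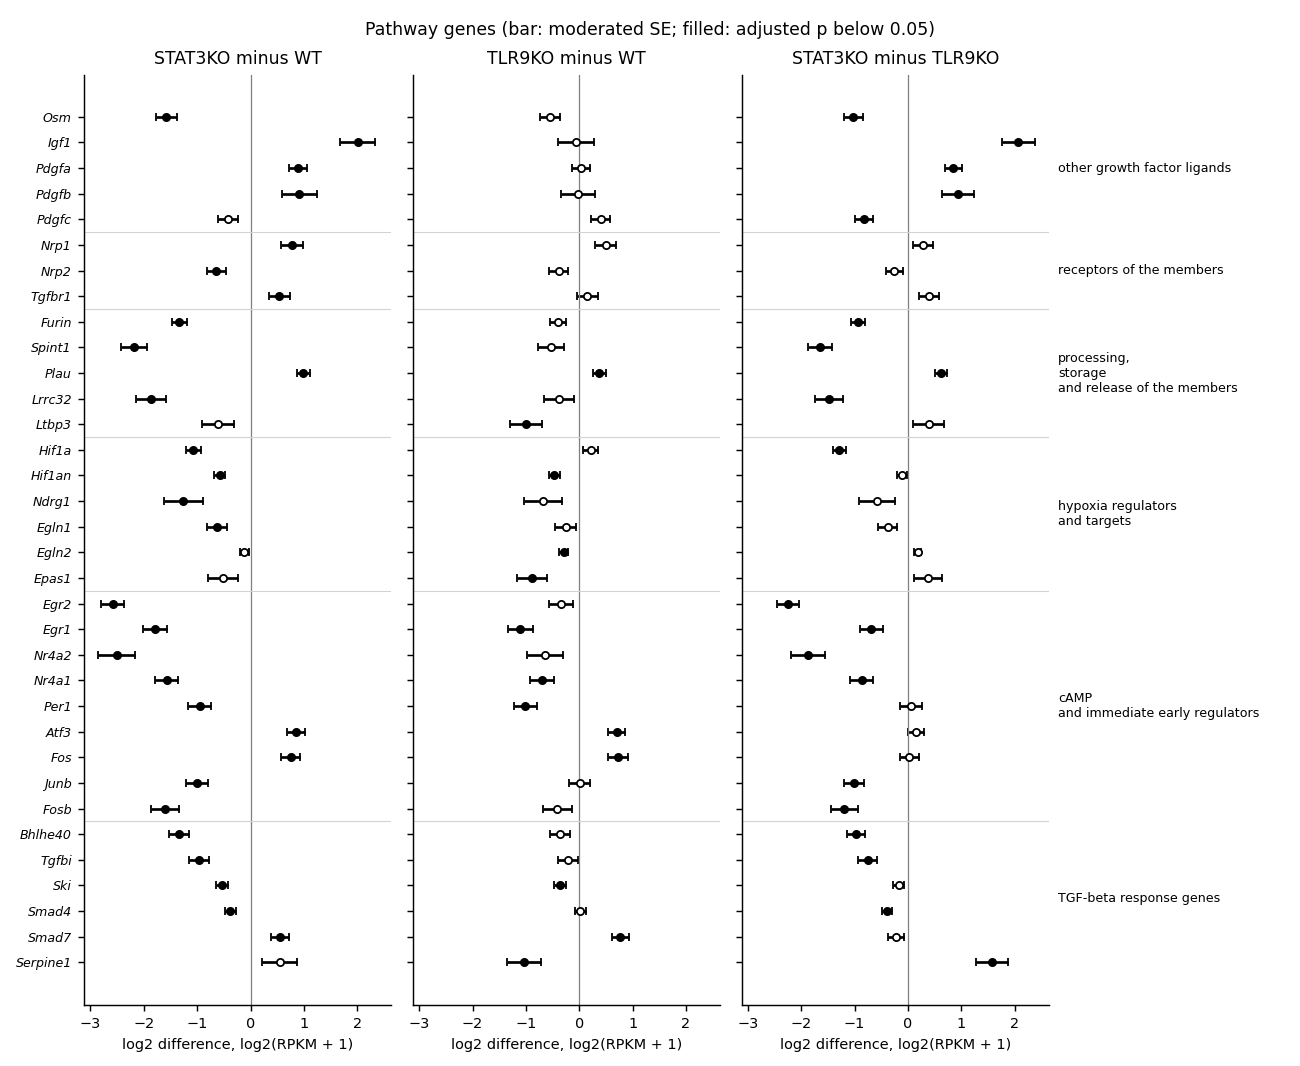
Difference in mean log2(RPKM + 1) between groups (x axis, log2 units) for genes of 6 lists, 1 panel per comparison; each gene shown is among the 4 smallest p-values past the threshold for its list in at least 1 comparison, bars are limma's moderated standard errors and filled points have an adjusted p below 0.05. Egr2 and Nr4a2 lie near -2.5 and Igf1 near 2 in STAT3KO minus WT, and Hif1a lies at -1.07 there and at -1.28 in STAT3KO minus TLR9KO.

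Hypoxia regulators and targets were read because Vegfa is a textbook target of Hif1a. Of 17 tested with limma, 5 fell and 0 rose in STAT3KO against WT (1 higher at an unadjusted p below 0.05, median -0.31). Of all tested genes, 44.0% passed in that comparison, 14.8% downwards. In TLR9KO against WT 3 fell and 0 rose (0 higher at an unadjusted p, median -0.19). In STAT3KO 1 was lower and 0 higher than in TLR9KO (2 higher at an unadjusted p, median -0.09). The shares of all tested genes were 30.6% between TLR9KO and WT, 10.6% downwards, and 22.8% between STAT3KO and TLR9KO, 9.46% downwards. Hif1a averaged 24.7 ± 3.45 RPKM in STAT3KO, 61.7 ± 9.91 in TLR9KO and 52.6 ± 2.56 in WT, with a log2 difference of -1.07 ± 0.14 between STAT3KO and WT (SE, limma, adjusted p = 0.000201). Hif1an fell in both knockouts against WT, by 0.57 in STAT3KO and 0.47 in TLR9KO (limma, adjusted p = 0.00124 and 0.00631). Ndrg1, a hypoxia target, fell by 1.26 and Egln1, an oxygen sensor that is itself induced by hypoxia, by 0.63 in STAT3KO against WT (limma, adjusted p = 0.0166 and 0.0204). The glycolytic targets Pgk1 and Ldha, like Vegfa, passed no test; Pgk1 averaged 723 ± 131 RPKM in STAT3KO, 687 ± 164 in TLR9KO and 762 ± 186 in WT.

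Of 14 cAMP and immediate early regulators, read because Areg and Hbegf respond quickly to such signals, 3 rose and 9 fell in STAT3KO against WT, with a median of -0.98, where 44.0% of all tested genes passed. Egr2 averaged 14.3 ± 4.98 RPKM in STAT3KO, 68.7 ± 7.08 in TLR9KO and 87.6 ± 10.9 in WT, a log2 difference of -2.59 between STAT3KO and WT (limma, adjusted p = 2.18e-05). Nr4a2, Egr1 and Nr4a1 fell as well, by 2.51, 1.79 and 1.57, while Fos, Jun and Atf3 rose by 0.75, 0.83 and 0.85 (limma, adjusted p of at most 0.00682 for these 6). Between TLR9KO and WT, 3 rose and 3 fell (median -0.23), where 30.6% of all tested genes passed. Between STAT3KO and TLR9KO, 9 were lower and 0 higher with limma (0 higher at an unadjusted p below 0.05, median -0.78). There, 22.8% of all tested genes passed, 9.46% downwards.

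Of 11 TGF-beta response genes, 2 rose and 4 fell in STAT3KO against WT (median -0.10), 1 rose and 2 fell in TLR9KO against WT (median -0.16), and 2 were higher and 3 lower in STAT3KO than in TLR9KO (median -0.22). Of all tested genes, 44.0%, 30.6% and 22.8% passed in these comparisons. Tgfbi averaged 315 ± 62.0 RPKM in STAT3KO, 531 ± 100 in TLR9KO and 610 ± 79.2 in WT, and fell by 0.97 in STAT3KO against WT on the log2 scale (limma, adjusted p = 0.00223). Bhlhe40 fell by 1.33 (limma, adjusted p = 0.00034). Smad7, an inhibitor of TGF-beta signalling, rose in both knockouts, by 0.55 in STAT3KO (limma, adjusted p = 0.0188) and 0.77 in TLR9KO (limma, adjusted p = 0.00545).

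How far calls over all genes lean upwards depended on scaling. As deposited, 66.3% of the calls between STAT3KO and WT, 65.3% between TLR9KO and WT and 58.5% between STAT3KO and TLR9KO were upwards, and with median-ratio scaling 48.6%, 52.1% and 43.6% were. That scaling moved the median of all genes between STAT3KO and WT to -0.02 from 0.09. The calls of the growth factors, with their directions, were the same under it and under quantile normalization, as was their order within each group under median-ratio scaling.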

How the data were processed

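RNA-seq of CD11b-positive tumour myeloid cells gave 1 table a library. Per the submitters' processing notes, the tools were CASAVA 1.7, TopHat 1.3.1, Bowtie 0.12.7 and Partek, with build mm9; strand use is not given in the sources used here. The values are RPKM as deposited by the authors, per the file headers (1 of the 11 names no unit). RPKM has lost the read counts, so depth was estimated from the steps between values of miRNA genes, where 77.3 to 97.1% of values came out whole within 0.15 reads.

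Groups came from the labels. log2(RPKM + 1) was fitted with limma 3.58.1 in R 4.3.3 over all 11 libraries (eBayes with trend, genes averaging 1 RPKM or more) and tested on simulated data with known changes. Other values used Python 3.11.15, pandas 2.3.3 and scipy 1.17.1. Named genes were the 10 growth factors, up to 4 genes per list and comparison with the smallest p, further list genes chosen after their values were seen (Met, the Erbb genes, Adam17, Lrrc33, Pgk1, Ldha, Tek, Jun, the neighbours and single cell type markers), and for likeness the genes with the highest Pearson correlation. The growth factors and lists were chosen with earlier results of these data known. Alternatives were the pseudocount, the filter, scaling, a GC and length correction, the libraries fitted, weights, a replicate block, each library left out and the threshold.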

Additional observations from a re-analysis of the deposited data

Results flagged for a closer look

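Ereg stood at 0.28 RPKM in replicate 1 of TLR9KO, about 45 reads, while the other libraries of that group stood between 0.01 and 0.04 RPKM. The gap took up 0.889 of the group's range, more than Dixon's critical value for 4 samples. It was the only such value among the 20 groups of 4 examined, and chance gives about 1 in 20.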

How the results depend on the processing

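No growth factor changed direction among calls: of 666 recomputed differences, 639 kept their side of the threshold, 15 lost it and 12 gained it. Those that kept it include leave-one-out values of Vegfc and Ereg. Their exact permutation test against WT cannot go below 0.0571, so these values could not change sides. The 6 calls between STAT3KO and WT were 6 whichever library was left out; 4 came with a minimum mean of 5 RPKM, which removes Angpt2 and Hgf, and 5 with the replicate block and GC correction, where Hgf missed (adjusted p = 0.0506; range 0.000306 to 0.0506). The calls between STAT3KO and TLR9KO ran from 3 to 4 on leaving out a library. The 2 calls between TLR9KO and WT ran from 1 to 3 on leaving out a library, and were 1 without the filter on low values, with the GC and length correction, with only those groups fitted, with the replicate block and that correction, and at a threshold of 0.01, Tgfb1 being the one kept; the cause was not tested beyond these settings. Hgf between STAT3KO and TLR9KO passed with the GC correction (0.0467) and with array weights (0.0263), and between TLR9KO and WT with a pseudocount of 0.1 (0.0396) or 0.01 (0.0385) and with array weights (0.0186).

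Over all genes, a threshold of 0.01 gave 2945 calls for STAT3KO against WT, 1661 for TLR9KO against WT and 919 for STAT3KO against TLR9KO, against 4648, 3229 and 2409. TLR9KO against WT gave 1648 with the GC and length correction and 1055 with the replicate block added. STAT3KO against TLR9KO gave 3807 with array weights. Leaving out a library gave 3673 to 4878, 1989 (without replicate 1 of WT) to 3595, and 1581 (without replicate 4 of TLR9KO) to 2709. The replicate block alone gave 4074, 2662 and 1879. Replicate numbers were not stated to pair the libraries. Deviations of same-number pairs correlated from -0.291 to 0.492, with 4 of 10 over 0.1, and those of different-number pairs from -0.608 to 0.533. These overlapping ranges cannot decide whether the libraries were paired. Of 2700 list counts, 333 moved by over 1.5 times. The low depth behind Vegfc and Ereg limits them, and read counts behind RPKM are estimates.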
